A study of Mus musculus with 15 samples.

Results

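The genes Ager, Hopx, Aqp5, Pdpn, Rtkn2 and Akap5, which mark alveolar type 1 cells, and Krt8, Cldn4 and Sfn, which mark a transitional state of the alveolar epithelium, are described here in mouse lung after silica. They are 9 of the 57010 genes in the deposited tables, and each was found by its symbol at a single gene identifier. The series holds 15 RNA-seq libraries in 4 groups, made from the lungs of C57BL/J mice. The silica_DMSO group (n = 4) was given a suspension of silica through the nose and then a solution of dimethyl sulfoxide (DMSO) the next day. The silica group (n = 3) was given silica, the DMSO group (n = 4) the DMSO solution, and the control group (n = 4) physiological saline. Lungs were taken at day 30. The study asks how DMSO bears on the lung's response to silica. Separate animals behind the libraries of a group are not named in the labels, and p-values cover only the spread between these libraries, which may be technical.

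Alveolar type 1 cells are the thin, flat cells that cover most of the gas exchange surface of the lung. After injury, alveolar type 2 cells, which make surfactant, divide and give rise to type 1 cells through a transitional state that is rich in keratin 8. That state is known to build up in injured and fibrotic mouse lungs. Krt8, Cldn4 and Sfn are also used by airway epithelium and by epithelia outside the lung, so in whole tissue they do not mark the transitional state alone. In RNA of whole tissue, fewer cells of a type and less RNA per cell cannot be told apart.

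Libraries differed within groups in 2 ways that bear on every value below. The libraries labelled DMSO 7, silica_DMSO 4 and silica_DMSO 6 held 392 to 682 TPM (a level scaled by gene length and to a common library total) of Rag1, the recombinase of developing lymphocytes, against at most 0.04 TPM in the other 12. These 3 are called thymus-like, and the other 12 lung libraries. Summed over 7 markers of thymic epithelium, the thymus-like libraries held 1165 to 2155 TPM and the lung libraries 48.6 to 124 TPM. Of the lung libraries, 5 (silica_DMSO 5, silica 7, DMSO 1, DMSO 4 and control 1) gave long genes a smaller share, with 11.5% to 24.2% of counts in genes over 3000 bases against 34.0% to 44.9% in the other 7. They are called short-gene libraries. Totals ran from 17434649 to 20829960 counts, and all 9 genes passed the filter on low counts, as did 17879 genes in all.

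Ager encodes the receptor for advanced glycation end products, which binds S100 proteins and HMGB1 and lies on the basal side of type 1 cells. It was at 1252, 25.5, 153 and 4.25 TPM in silica_DMSO libraries 2, 4, 5 and 6, and at 968, 935 and 624 TPM in silica libraries 1, 2 and 7. DMSO libraries 1, 4, 6 and 7 held 361, 107, 1277 and 310 TPM, and control libraries 1, 2, 4 and 7 held 1693, 1049, 1392 and 1380 TPM. The 3 silica libraries all lay below the 4 control libraries, while the silica_DMSO and DMSO groups each had a single library in the control range.

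Hopx encodes a small homeodomain protein that does not bind DNA itself and acts as a cofactor of transcription. In the same order of libraries it stood at 552, 17.4, 113 and 6.89 TPM with silica_DMSO, and at 279, 416 and 328 TPM with silica. With DMSO it stood at 301, 110, 579 and 150 TPM, and in controls at 554, 588, 582 and 611 TPM. The control libraries were close together, at 584 ± 23.7 TPM (SD, n = 4), and all silica libraries were under them.

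Aqp5 is the water channel of the apical membrane of type 1 cells. It was at 201, 4.99, 61.7 and 1.21 TPM in silica_DMSO, 167, 143 and 159 TPM in silica, 94.9, 63.2, 228 and 65.3 TPM in DMSO and 222, 155, 250 and 251 TPM in control libraries. The silica libraries overlapped the lowest control library, at 155 TPM. Pdpn encodes podoplanin, a mucin-like membrane protein that lymphatic endothelium and mesothelium also carry. It was at 97.6, 12.2, 14.5 and 6.70 TPM in silica_DMSO, 118, 77.1 and 49.7 TPM in silica, 29.5, 9.37, 80.0 and 23.8 TPM in DMSO and 53.9, 81.8, 97.9 and 93.4 TPM in control libraries. Silica 1 had the highest Pdpn TPM of the 15 libraries, and the means of 81.4 ± 34.2 TPM in silica (SD, n = 3) and 81.7 ± 19.8 TPM in control (SD, n = 4) were close. In normalised CPM, a scale defined below, silica 1 was not the highest, at 138 against 153 in control 1.

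Rtkn2 encodes rhotekin 2. It was at 52.1, 4.60, 2.56 and 5.01 TPM in silica_DMSO, 39.5, 25.4 and 10.4 TPM in silica, 8.99, 1.07, 50.7 and 18.7 TPM in DMSO and 17.9, 39.8, 65.3 and 49.2 TPM in control libraries. Akap5 encodes an anchoring protein that holds protein kinase A at membranes. It was at 27.1, 0.24, 1.30 and 0.07 TPM in silica_DMSO, 34.3, 11.9 and 4.43 TPM in silica, 4.84, 0.44, 27.1 and 12.03 TPM in DMSO and 15.3, 36.1, 54.8 and 20.4 TPM in control libraries. These are the longest of the 9 genes, at 3970 bases for Rtkn2 and 2711 bases for Akap5 in the authors' table, and in each group their lowest lung library was a short-gene one. Over the 12 lung libraries the highest level of Rtkn2 was 61.0-fold and that of Akap5 125-fold the lowest, while Hopx spanned 5.56-fold and Aqp5 4.07-fold.

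Krt8 encodes the keratin that pairs with keratin 18 in simple epithelia. It was at 92.7, 250, 48.8 and 233.5 TPM in silica_DMSO, 79.0, 96.7 and 126 TPM in silica, 70.8, 100, 88.1 and 132 TPM in DMSO and 83.2, 67.9, 92.5 and 103 TPM in control libraries. The highest 3 levels were those of the thymus-like libraries, and over the 12 lung libraries Krt8 spanned 2.59-fold, the smallest range of the 9 genes. Cldn4 encodes claudin 4, a sealing protein of tight junctions. It was at 3.16, 19.2, 0.71 and 13.8 TPM in silica_DMSO, 4.06, 3.64 and 6.14 TPM in silica, 3.38, 3.78, 3.48 and 9.57 TPM in DMSO and 2.17, 3.73, 3.57 and 3.38 TPM in control libraries. Its lowest value, in silica_DMSO 5, came from 52 counts.

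Sfn encodes stratifin, the sigma form of the 14-3-3 proteins, which p53 induces and which holds back the cell cycle. It was at 14.4, 49.0, 5.28 and 42.4 TPM in silica_DMSO, 22.2, 11.6 and 13.9 TPM in silica, 7.36, 23.7, 10.6 and 25.1 TPM in DMSO and 12.3, 9.50, 13.5 and 13.4 TPM in control libraries. All 3 transitional genes had their highest TPM in the 3 thymus-like libraries. Markers of basal epithelium, 5 genes that include Krt5 and Trp63, summed to 75.2 to 318 TPM in the thymus-like libraries and to 0.14 to 1.97 TPM in the lung libraries. The part of thymic and basal epithelium in the Krt8, Cldn4 and Sfn levels was not tested.

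**Figure D1:**
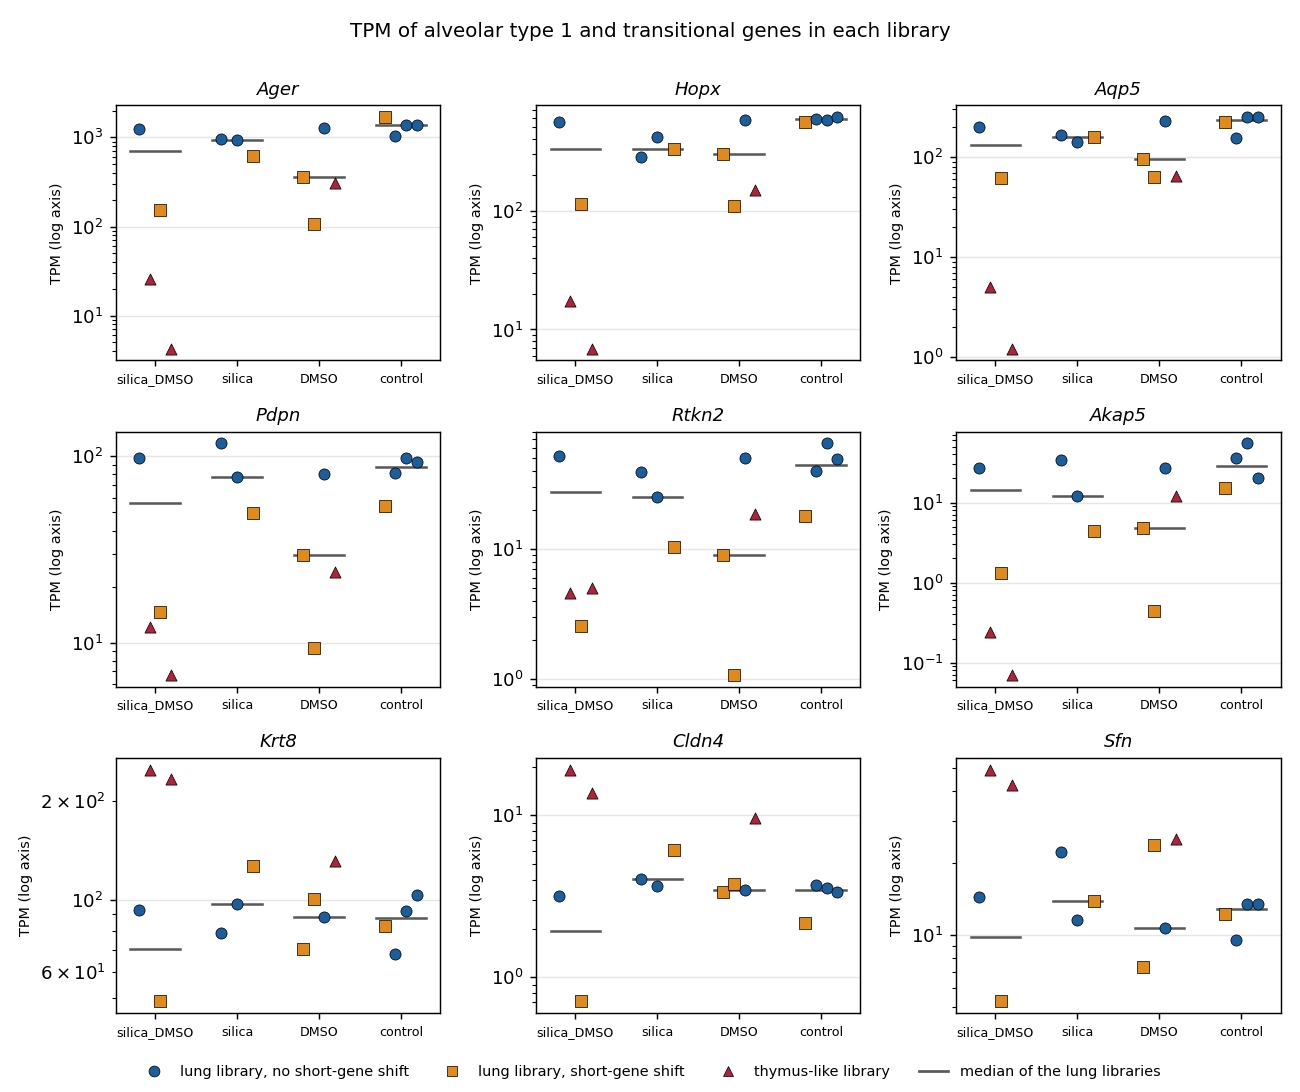
TPM of the 9 genes on log axes in each library, by group, with 1 point per library and grey lines at the median of the lung libraries of a group. Red triangles are the thymus-like libraries, orange squares the short-gene and blue circles the other lung libraries. The type 1 genes of silica_DMSO 4 and 6 lie far below the lung libraries for Ager, Hopx and Aqp5, and the 3 transitional genes are highest in red.

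Of the 9 genes, 8 have an entry in the RefSeq table of promoters for GRCm38.p6, and the 250 bases before the start were read. Ager and Cldn4 are shown because silica_DMSO 4 and 6 held the lowest TPM of Ager and the highest of Cldn4. The Ager window lies on the + strand at chr17:34597600-34597849 and the Cldn4 window on the - strand at chr5:134946935-134947184. Both are given 5′ to 3′ on the strand of the gene, with matches to AP-1 (TGANTCA) and the GC box (GGGCGG) in capitals.
Ager: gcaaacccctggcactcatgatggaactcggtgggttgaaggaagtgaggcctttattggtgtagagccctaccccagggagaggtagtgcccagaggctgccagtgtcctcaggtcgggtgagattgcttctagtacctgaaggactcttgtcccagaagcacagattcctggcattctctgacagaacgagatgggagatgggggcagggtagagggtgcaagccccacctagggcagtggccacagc
Cldn4: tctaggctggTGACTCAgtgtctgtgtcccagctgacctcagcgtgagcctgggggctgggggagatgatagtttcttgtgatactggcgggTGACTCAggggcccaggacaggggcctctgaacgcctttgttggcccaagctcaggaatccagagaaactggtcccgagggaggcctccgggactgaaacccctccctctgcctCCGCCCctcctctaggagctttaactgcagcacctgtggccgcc
The Ager window held no match to any motif searched, which were these and the letters of TEAD (CATTCC), NKX2 (CAAGTG) and the TATA box (TATAAA), on both strands. The Cldn4 window held 2 matches to AP-1 and 1 to the GC box, which do not overlap. Of 32851 windows of this length, 6.75% held the AP-1 letters, 12.6% those of TEAD, 11.6% those of NKX2, 12.4% the TATA box and 32.7% the GC box. Among the 8 genes, 1 (Cldn4) had an AP-1 match, 3 (Aqp5, Akap5 and Cldn4) had a GC box and 0 had the other motifs. A match describes letters only. The bases after the start of the Cldn4 window were found in a reference transcript of that gene (GENCODE). Those after the start of the Ager window were not found in one of Ager, so that start is less sure.

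Per gene length, the order of the mean levels in the 4 control libraries was Ager (1379 ± 263 TPM), Hopx (584 ± 23.7 TPM), Aqp5 (219 ± 45.2 TPM), Krt8 (86.7 ± 14.96 TPM), Pdpn (81.7 ± 19.8 TPM), Rtkn2 (43.0 ± 19.8 TPM), Akap5 (31.6 ± 17.8 TPM), Sfn (12.2 ± 1.87 TPM) and Cldn4 (3.21 ± 0.71 TPM), all with the SD over n = 4. The ranges of neighbours overlapped for Krt8 and Pdpn, Pdpn and Rtkn2, and Rtkn2 and Akap5, and not for the other neighbours. In the 3 silica libraries the same order of means held, with Krt8 at 101 ± 23.9 TPM above Pdpn at 81.4 ± 34.2 TPM, and Sfn at 15.9 ± 5.56 TPM just under Akap5 at 16.9 ± 15.6 TPM (SD, n = 3).

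The ratio of Ager to Krt8 TPM is taken within a library, between genes of 1370 and 1958 bases. It was 13.5, 0.102, 3.13 and 0.0182 in silica_DMSO libraries 2, 4, 5 and 6, and 12.2, 9.67 and 4.94 in silica libraries 1, 2 and 7. In DMSO libraries 1, 4, 6 and 7 it was 5.10, 1.07, 14.5 and 2.36, and in control libraries 1, 2, 4 and 7 it was 20.3, 15.5, 15.1 and 13.4. The 3 silica values were all under the lowest control value, and control 1, a short-gene library, had the highest ratio of all 15. The summed type 1 genes over the summed transitional genes gave 8.03 to 15.3 in silica and 20.1 to 26.2 in control libraries. The ratio was chosen after the levels were seen, so no test is given. Ager by itself was also lower in silica without overlap in TPM. So were 3.07% of the genes tested in the 15 libraries and 3.17% of those tested in the 12. No such share was worked out for ratios.

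**Figure D2:**
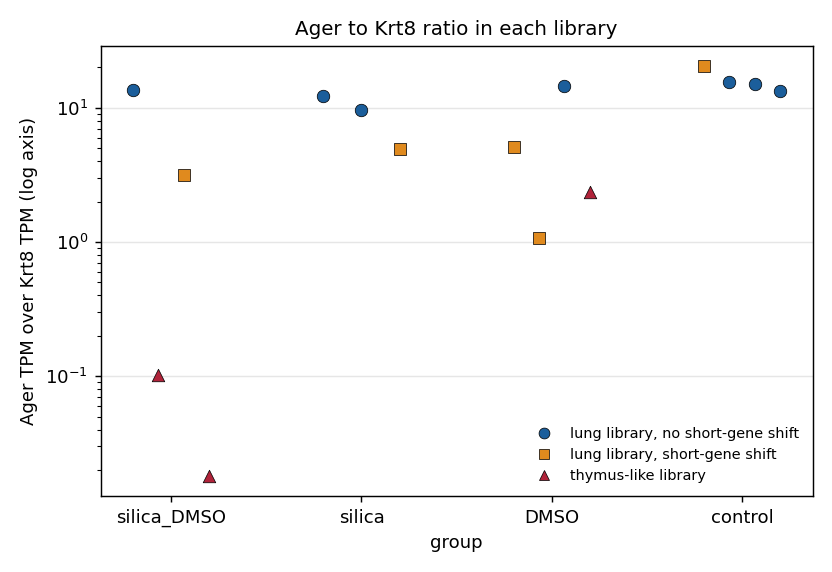
Ratio of Ager TPM to Krt8 TPM on a log axis, 1 point per library by group, with the same symbols for thymus-like, short-gene and other lung libraries. The 4 control libraries lie between 13.4 and 20.3 and the 3 silica libraries between 4.94 and 12.2, while both groups given DMSO spread from the control level to far under it.

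Counts scaled to library totals and then between libraries by TMM (normalised CPM) ordered the short-gene libraries otherwise than TPM did. Krt8 in silica_DMSO 5, the lowest of all libraries in TPM, was at 395 normalised CPM, above the 109 to 258 of the control libraries. As a share of the median of the 12 lung libraries, the median type 1 gene stood at 107% in silica_DMSO 2 and 79.4% in silica_DMSO 5. It stood at 80.9%, 82.4% and 104% in silica 1, 2 and 7. In DMSO 1, 4 and 6 it stood at 63.7%, 39.3% and 118%, and in control 1, 2, 4 and 7 at 155%, 103%, 98.9% and 123%. DMSO 4 was the lowest lung library, with Akap5 at 7.07%, Rtkn2 at 13.0% and Ager at 37.7% of the lung median but Aqp5 at 105%.

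On that scale the transitional genes were highest in DMSO 4 among the lung libraries, with Sfn at 639%, Cldn4 at 386% and Krt8 at 347% of the lung median. Krt8 was also at 224% in silica_DMSO 5 and 205% in silica 7, and Cldn4 was at 294% in silica 7. The 5 short-gene libraries had the highest 5 Krt8 values of the lung libraries on this scale, the lowest of them DMSO 1 at 121%. The part of the short-gene shift in these levels cannot be told apart from the libraries that carry it.

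The thymus-like libraries differed among themselves. Ager was at 1.92% of the lung median in silica_DMSO 4 and 0.364% in silica_DMSO 6, but at 22.6% in DMSO 7. Pdpn was at 11.3%, 7.23% and 21.7% in the same libraries, above Ager in silica_DMSO 4 and 6 and just under it in DMSO 7. Rtkn2, at 10.1%, 12.3% and 40.9%, was above Ager in all 3. Lymphatic endothelium markers, 6 genes, summed to 405 to 1508 TPM in the thymus-like and to 80.4 to 313 TPM in the lung libraries, and their part in the Pdpn level was not tested. The 15 type 2 markers summed to 2181, 412 and 14147 TPM in silica_DMSO 4, silica_DMSO 6 and DMSO 7, against 18273 to 55707 TPM in the lung libraries.

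**Figure D3:**
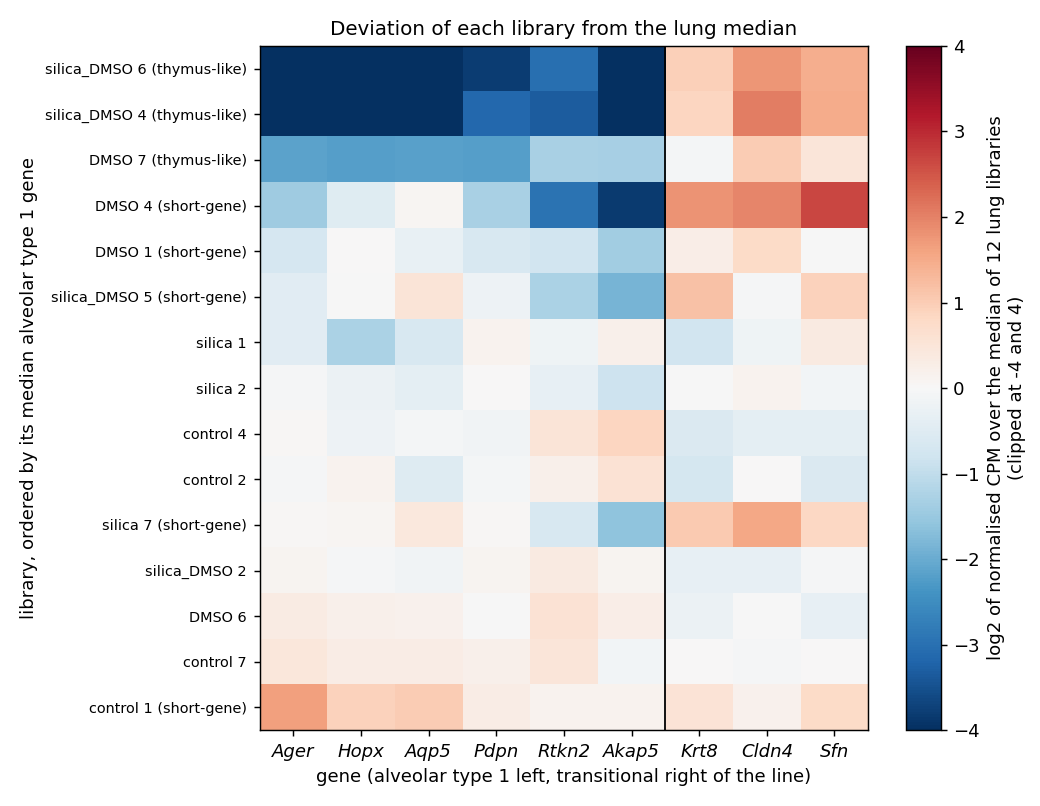
Each library's normalised CPM of the 9 genes as log2 over the median of the 12 lung libraries, blue below and red above it, clipped at 4 either way. Rows are libraries ordered by their median type 1 gene, from silica_DMSO 6 at the top to control 1 at the bottom. All transitional genes, right of the line, are above the lung median in silica_DMSO 4 and 6, in DMSO 4, and also in silica 7 and control 1.

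After silica, all 6 type 1 genes had negative and all 3 transitional genes positive log2 fold changes against control in both sets of libraries, and none passed the test. Ager averaged 842 ± 190 TPM in silica (SD, n = 3) and 1379 ± 263 TPM in control libraries (SD, n = 4), and Hopx 341 ± 69.5 TPM in silica and 584 ± 23.7 TPM in control libraries. The test was edgeR's quasi-likelihood test over all genes. Of the 9 genes, 0 were called at an adjusted p under 0.05 in the 15 libraries, where 0.0% of all genes tested were called, and 0 without the thymus-like libraries, where 0.0113% were. None of the 9 had an unadjusted p under 0.05 in either fit, and DESeq2 also called 0 of them in both. Over all genes the 15-library fit called 0 (522 at an unadjusted p under 0.05) and DESeq2 called 44, and the 12-library fit called 2 (1055) and DESeq2 150. In the 12 lung libraries the log2 fold change was -0.85 ± 0.55 for Ager (SE; 95% interval -2.06 to 0.36), -0.72 ± 0.41 for Hopx (-1.63 to 0.18) and -0.45 ± 0.41 for Aqp5 (-1.34 to 0.45). It was -0.05 ± 0.31 for Pdpn (-0.72 to 0.62), -0.74 ± 0.63 for Rtkn2 (-2.13 to 0.65) and -1.003 ± 0.79 for Akap5 (-2.75 to 0.74). The adjusted p was 0.967 for Hopx and 0.9997 for the others, and each interval holds 0.

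The transitional genes had log2 fold changes of 0.34 ± 0.60 for Krt8 (95% interval -0.97 to 1.65), 0.74 ± 0.50 for Cldn4 (-0.36 to 1.84) and 0.32 ± 0.66 for Sfn (-1.12 to 1.76) in silica against control. With the 15 libraries the 9 values moved by little. The intervals of the 6 type 1 genes and Cldn4 widened, for Ager to -3.48 to 1.83 around -0.83, while those of Krt8 (-0.88 to 1.60) and Sfn (-1.05 to 1.75) narrowed slightly. In the 7 lung libraries without the short-gene shift, where silica has 2 libraries and control 3, Ager was at -0.40 ± 0.30, Rtkn2 at -0.64 ± 0.20, Krt8 at 0.05 ± 0.32 and Cldn4 at 0.12 ± 0.31. Rtkn2 had an unadjusted p of 0.0145 and an adjusted p of 0.289 in that fit by edgeR. With an offset for gene length in the 12 libraries, Ager was at -0.79 ± 0.58 and Rtkn2 at -0.68 ± 0.49.

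Some genes did not overlap between silica and control. In TPM these were 2 of the 9, Ager and Hopx, both lower in silica, where 3.07% of the genes tested in the 15 libraries and 3.17% of those tested in the 12 were lower without overlap. In normalised CPM, Ager and Hopx overlapped and Rtkn2 did not, with 66.2 to 91.4 in silica and 114 to 146 in control libraries, where 4.67% and 5.19% of genes were lower without overlap in the 15 and the 12 libraries. Marker lists of other cells went either way in silica against control. The 6 club cell markers were all positive in the 12 libraries, at a median log2 fold change of 0.19, and 6 of 7 ciliated cell markers were, at a median of 0.34. In TPM both sums overlapped between the groups. Club markers summed to 62068, 281655 and 389519 TPM in silica 1, 2 and 7 and to 221099 to 355039 TPM in control libraries. Ciliated markers summed to 592 to 1349 TPM in silica and 840 to 1065 TPM in control libraries. Silica 1 had the lowest sum of both lists among the 12 lung libraries. Summed over 9 markers of blood endothelium, silica libraries held 694 to 1271 TPM and control libraries 1331 to 2048 TPM. Over 8 markers of mesothelium the sums were 142 to 166 TPM in silica and 186 to 277 TPM in control libraries, and over 5 of cardiac muscle 51.0 to 155 TPM in silica and 190 to 511 TPM in control libraries. No marker of these lists was at 0 in all libraries, and their part in the Ager and Hopx levels was not tested.

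All libraries given silica were also set against all given none, as the mean of the contrasts with and without DMSO. Of the 9 genes 0 were called by edgeR with the 15 libraries, where 0.0% of all genes were, and 0 with the 12 lung libraries, where 0.0908% were, and none had an unadjusted p under 0.05. Over all genes 594 in the 15 and 742 in the 12 libraries had an unadjusted p under 0.05. DESeq2 called 0 of the 9 in either set, with 41 genes in all in the 15 libraries and 133 in the 12. In the 12 lung libraries the log2 fold changes lay between -0.37 ± 0.61 (SE) for Akap5 and 0.22 ± 0.24 for Pdpn among the type 1 genes. Krt8 was at 0.03 ± 0.47 (95% interval -0.997 to 1.05), Cldn4 at -0.28 ± 0.40 and Sfn at -0.31 ± 0.52.

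DMSO against control had the lowest p-values of the 9 genes among the direct contrasts of groups. By edgeR 0 were called in the 15 libraries, where 0.0% of all genes were (1275 at an unadjusted p under 0.05), and 0 in the 12, where 0.0% were (1519 at an unadjusted p under 0.05). DESeq2 called 0 of the 9 in both and, over all genes, 63 and 60. In the 12 lung libraries all 6 type 1 genes had negative and all 3 transitional genes positive values. The log2 fold change was -1.11 ± 0.56 for Ager (SE; 95% interval -2.33 to 0.11), -0.65 ± 0.31 for Pdpn (-1.33 to 0.03) and -1.27 ± 0.80 for Akap5 (-3.03 to 0.49). It was 0.94 ± 0.60 for Krt8 (-0.36 to 2.25), 1.15 ± 0.50 for Cldn4 (0.05 to 2.24) and 1.36 ± 0.66 for Sfn (-0.08 to 2.80). Cldn4, with an unadjusted p of 0.0423 and an adjusted p of 0.513, was the only one of the 9 under 0.05 before adjustment by edgeR. With DESeq2 these were Ager, Pdpn, Sfn and Cldn4. The Cldn4 difference turned on the scale. In TPM it was at 3.38, 3.78 and 3.48 in DMSO 1, 4 and 6 and at 2.17 to 3.73 in control libraries. In normalised CPM it was at 9.31, 21.1 and 5.44 in the same DMSO libraries and at 4.19 to 6.17 in control libraries. Krt8 overlapped in TPM, at 70.8, 100 and 88.1 in DMSO 1, 4 and 6 and 67.9 to 103 in control libraries. Sfn was at 17.6, 115 and 14.4 normalised CPM in these DMSO libraries and 12.1 to 30.3 in control libraries. Only DMSO 4 was thus above the control range of Sfn.

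Of the 3 lung libraries of the DMSO group, 2 were short-gene ones. With that class as a term in the fit, Cldn4 was at 0.61 ± 0.41, Sfn at 0.71 ± 0.54, Krt8 at 0.32 ± 0.39 and Ager at -1.11 ± 0.53 on the log2 scale. In the 7 lung libraries without the shift, DMSO 6 stands alone and is assumed to vary like the other groups. There Ager was at 0.17 ± 0.37, Cldn4 at 0.13 ± 0.38 and Sfn at -0.03 ± 0.34, and the signs of Ager, Hopx, Aqp5, Rtkn2 and Sfn turned. DMSO 6 held 1277 TPM of Ager, within the control range of 1049 to 1693 TPM. Blood endothelium markers summed to 275 to 1459 TPM in the DMSO and 1331 to 2048 TPM in the control lung libraries. All 7 markers of ciliated cells had positive log2 fold changes in DMSO against control in the 12 lung libraries, at a median of 1.503. That rise turned on the scale. In TPM the ciliated sums overlapped, at 973 to 1669 in the DMSO and 840 to 1065 in the control lung libraries. Their medians were 1054 and 1041 TPM. The part of endothelium and ciliated cells in the log2 values above was not tested.

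DMSO after silica was set against silica alone. The 15 libraries gave log2 fold changes of -0.99 ± 1.21 (SE) for Ager, -0.98 ± 0.74 for Pdpn, 0.50 ± 0.59 for Krt8 and 0.67 ± 0.66 for Sfn, with 0 of the 9 genes called by edgeR where 0.0% of all genes were (1056 at an unadjusted p under 0.05). DESeq2 called 0 of the 9 and 67 genes in all. Without the thymus-like libraries silica_DMSO keeps only libraries 2 and 5, and Ager stood at -0.01 ± 0.65 (95% interval -1.43 to 1.41), Pdpn at -0.11 ± 0.37, Krt8 at 0.32 ± 0.71 and Sfn at 0.11 ± 0.79. Cldn4 was at 0.50 ± 0.63 with and at -0.91 ± 0.62 without the thymus-like libraries. Over both fits no gene of the 9 had an unadjusted p under 0.05, and in the 12 libraries 0.0% of all genes were called (342 at an unadjusted p under 0.05) and 0 by DESeq2. In TPM, Cldn4 did not overlap, at 3.16 and 0.71 in the silica_DMSO and 3.64 to 6.14 in the silica lung libraries, where 3.02% of genes were lower without overlap.

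Silica_DMSO against DMSO gave 0 calls among the 9 genes by edgeR in both sets, where 0.0% of all genes were called in each, and none at an unadjusted p under 0.05 (305 of all genes in the 15 and 335 in the 12 libraries). DESeq2 called 0 of the 9, with 1 gene in all in the 15 libraries and 10 in the 12, and gave Cldn4 an unadjusted p of 0.0461 in the 12. Cldn4 had the largest value in the 12 libraries, at -1.31 ± 0.63 (SE; 95% interval -2.70 to 0.08). It did not overlap there, at 4.37 and 5.28 normalised CPM in the silica_DMSO and 5.44 to 21.1 in the DMSO lung libraries, where 5.03% of all genes were lower without overlap, and 1.78% in TPM. With the thymus-like libraries its value was 0.12 ± 0.58. The difference between the effect of silica with and without DMSO was tested as an interaction, with 0 of the 9 called in either set, where 0.0% of all genes were (297 and 485 at an unadjusted p under 0.05). Cldn4 in the 12 libraries had the lowest p there, at a log2 difference of -2.05 ± 0.81, an unadjusted p of 0.0266 and an adjusted p of 1 by edgeR. Over all genes, DESeq2 called 8 for the interaction in the 15 libraries and 1 in the 12, and 0 of the 9 genes.

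**Figure D4:**
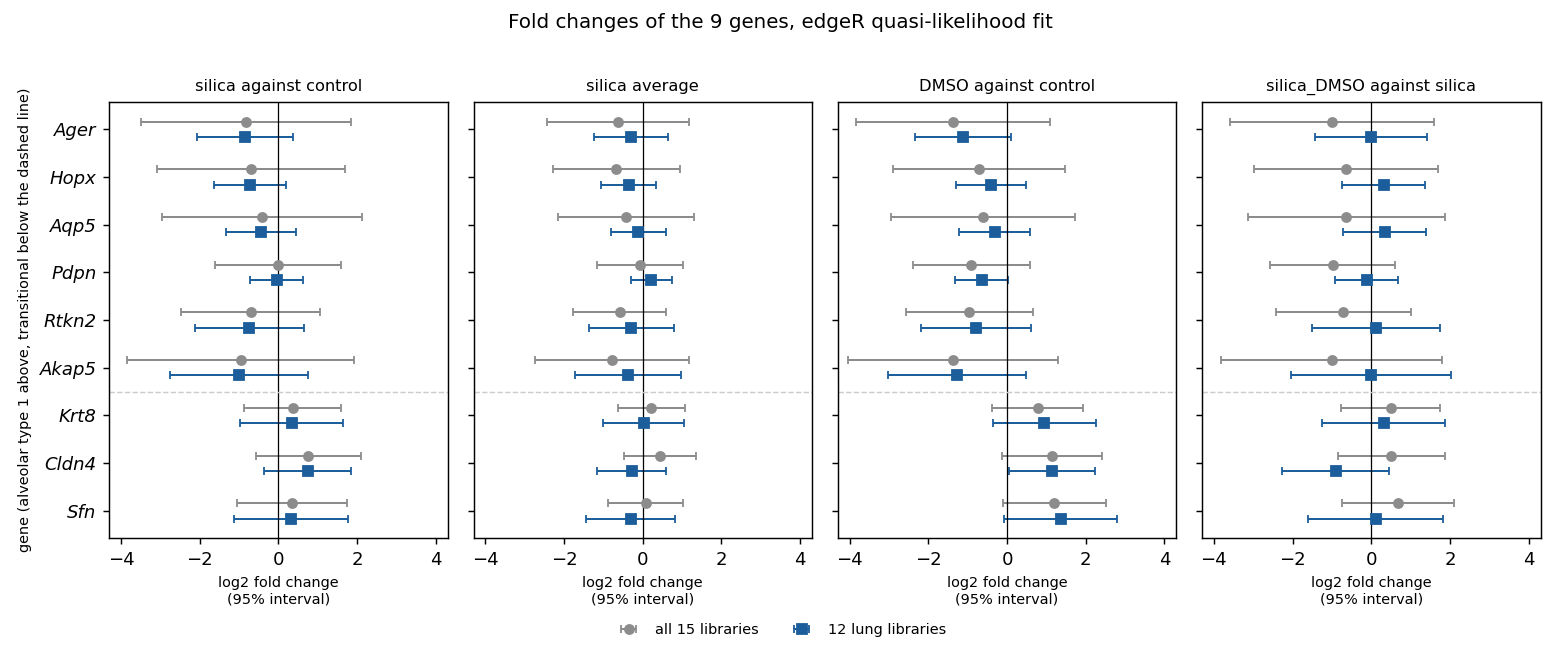
Log2 fold changes with 95% intervals from edgeR's quasi-likelihood fit for 4 comparisons, with grey circles for all 15 and blue squares for the 12 lung libraries. Nearly all intervals cross 0, Cldn4 in DMSO against control in the 12 libraries (0.05 to 2.24) being the exception. For each type 1 gene the grey interval is wider than the blue one of the same comparison.

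Of 23 other genes of alveolar type 1 cells, 0 were called by edgeR in any of the 6 comparisons in either set of libraries. In silica against control 20 of the 23 had negative values in the 15 libraries, with a median log2 fold change of -0.51, where the median of all genes tested was 0.00. In the 12 lung libraries 21 of 23 were negative, at a median of -0.54. In DMSO against control all 23 were negative in the 15 libraries, at a median of -1.03 where that of all genes was 0.14, and 22 were in the 12, at a median of -0.90. Summed TPM of the 23 split by library class, at 309 to 1739 in the 5 short-gene and 2155 to 3819 in the other 7 lung libraries. DMSO 6, which lacks the shift, held 2922 TPM, against 1739 to 3819 TPM in the control libraries. The part of the shift in these signs was not tested. Cav1, the caveolin of type 1 cells and endothelium, was at -0.80 ± 0.58 (SE), and Cldn18, the claudin of alveolar epithelium, at -0.54 ± 0.54 in silica against control in the 12 libraries. For silica_DMSO against silica the median was -0.86 in the 15 libraries, with 23 negative, and 0.07 in the 12, with 10 negative. The 15 type 2 genes had medians of -0.23 in silica and -0.54 in DMSO against control in the 12 libraries. Sftpc, the surfactant protein of type 2 cells, was at -0.35 ± 0.63 and -0.02 ± 0.63 in these contrasts.

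Of 22 other genes of the transitional state, 21 were tested and 0 were called, with 12 positive and 9 negative in silica against control in either set of libraries and a median log2 fold change of 0.14 in the 12. Keratin 18, the partner of keratin 8, was at -0.07 ± 0.65 (SE) in that contrast and Krt19 at -0.19 ± 0.64. Lgals3, the galectin of macrophages and of the transitional state, was at 1.62 ± 0.73 with an adjusted p of 0.834, and Cdkn1a, the p53-induced inhibitor of the cell cycle, at 0.87 ± 0.42 with an adjusted p of 0.864. In the 7 lung libraries without the short-gene shift Lgals3 was called, at 1.83 and an adjusted p of 0.0328 by edgeR. Gdf15, a secreted stress protein that p53 induces, had the smallest p of the transitional and p53 lists when all silica libraries were set against all others, at 1.62 ± 0.40, an unadjusted p of 0.00186 and an adjusted p of 0.322 by edgeR. It is a member of both lists. Of the 12 p53 targets, 7 were positive and 5 negative in that contrast, with a median of 0.16.

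Ligands of the receptor that Ager encodes were 10 genes, of which 0 were called in any comparison. S100a8 and S100a9, the calgranulins of neutrophils, had log2 fold changes of 2.01 ± 0.78 (SE, adjusted p 0.726) and 1.81 ± 0.79 (adjusted p 0.828) in silica against control, and 2.76 ± 0.80 and 2.45 ± 0.80 in DMSO against control (adjusted p 0.513 for both), in the 12 lung libraries. The DMSO values rest in part on the short-gene libraries DMSO 1 and DMSO 4. In TPM the sums over all 10 ligands overlapped, at 3463 to 4377 in the DMSO, 3581 to 6180 in the silica and 2846 to 3927 in the control lung libraries. Hmgb1, the chromatin protein that acts as an alarm signal outside cells, was at -0.17 ± 0.31 in silica against control. Of the 15 other claudin and tight junction genes, 8 were positive and 7 negative in silica against control and 0 were called. Cldn3 was at -0.04 ± 0.65 and Cldn7 at 0.26 ± 0.62. The other aquaporins (5 of 8 tested) and the other 14-3-3 genes (6 tested) had 0 calls, and of the 10 targets of the YAP and TEAD factors, which take part in type 1 cell fate, 9 were negative in silica and 10 in DMSO against control in the 12 libraries, with 0 called. Summed TPM of these targets also split by library class, at 34.4 to 142 in the short-gene and 281 to 679 in the other lung libraries. DMSO 6 held 380 TPM of them, against 142 to 679 TPM in the control libraries. Krt7 was at -0.31 ± 0.35 and Epcam, the adhesion molecule of epithelia, at 0.19 ± 0.34 in silica against control.

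In the remaining lists the gene of smallest p for all silica libraries against all others in the 12 lung libraries was not called. These were Col4a4 of the type 1 list at a log2 fold change of 0.52 ± 0.45 (SE), Axl of the YAP and TEAD targets at 0.45 ± 0.23, Cldn2 of the claudins at -1.30 ± 0.67, S100a4 of the ligands at 0.91 ± 0.55, Aqp11 at -0.43 ± 0.29 and Ywhag at 0.32 ± 0.27. Of the epithelial markers they were Chil1 of type 2 cells at 0.86 ± 0.33 (unadjusted p 0.0224, adjusted p 0.893 by edgeR), Krt5 of basal cells at 2.36 ± 1.097, Scgb3a1 of club cells at -0.43 ± 0.97, Foxj1 of ciliated cells at -0.23 ± 0.46, Esrp1 at -0.29 ± 0.26 and Tbata of thymic epithelium at -0.15 ± 0.53. Of the other markers they were Upk3b of mesothelium at -1.63 ± 0.86, Ednrb of blood endothelium at -0.56 ± 0.50, Mmrn1 of lymphatic endothelium at 0.29 ± 0.25, Tnnt2 of cardiac muscle at -0.56 ± 0.53, Cd8b1 at -0.66 ± 0.31, Klrb1c at -0.52 ± 0.41 and Cd79a of B cells at -0.85 ± 0.31. The Krt5 value rests on a very low level, as the 5 basal markers summed to at most 1.97 TPM in any lung library.

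Across the 12 lung libraries, of which 5 carry the short-gene shift, the Pearson correlation of log2(TPM + 1) between pairs of the 6 type 1 genes ran from 0.86 to 0.97 (15 pairs). Across the 7 libraries without the shift it ran from -0.52 to 0.96 with a median of 0.49, and across the 12 libraries in log2 normalised CPM from -0.18 to 0.96 with a median of 0.65. The 3 pairs of transitional genes ran from 0.61 to 0.79 in TPM and from 0.75 to 0.87 in normalised CPM, but from -0.58 to 0.35 in TPM over the 7 libraries without the shift. Between the type 1 and the transitional genes the median over 18 pairs was 0.29 in TPM and -0.52 in normalised CPM. The sign between these sets thus turned with the scale.

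Among 14108 genes with a mean of at least 1 TPM, the gene most like Ager over the 12 lung libraries was Paqr4 (r = 0.99), and it had r = 0.84 over the 7 without the shift. Hopx was nearest to Tsc22d3 (0.99 and 0.94), Aqp5 to Gamt (0.97 and 0.91), Pdpn to Erlin1 (0.99 and 0.86), Rtkn2 to Prkd1 (0.99 and 0.94) and Akap5 to Map3k20 (0.996 and 0.969). Krt8 was nearest to Foxj1, the factor that drives the ciliated cell fate (0.91 and 0.73), Sfn to Gpr137 (0.95 and 0.99), and Cldn4 to Cfap157 (0.92 and 0.73). The next for Cldn4 was Zap70, at 0.92 over the 12 libraries and 0.24 over the 7. Others among the nearest 3 were Rab11a and Npr1 for Ager, Arl4d for Hopx, Adh1 and Wtip for Aqp5, and Abhd17c and Mark3 for Pdpn. Further ones were Cobl and Hbegf for Rtkn2, Pde5a and Tcf4 for Akap5, Abhd14a and Bsg for Krt8, Plpp2 for Cldn4 and Mtg1 for Sfn. Of these others, Plpp2 was at 0.03 with Cldn4 over the 7 libraries, and the rest at 0.73 or above. Rab11a was at -0.19 with Ager in normalised CPM over the 12 libraries, and the rest at 0.70 or above.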

How the data were processed

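Expected counts per gene for 15 libraries were deposited by the authors, together with a table of TPM made by the authors and, as an other value, a gene length in bases per the file headers. Per the submitters' processing notes, which list names without roles, the tool was Bowtie 0.12.2 and the build mm8. Neither the counting program nor its strand setting is given in the sources used here. Retinas are named in the extraction protocol and lung in the tissue field. Both tables also hold 8 columns of the authors' means, which were not used. Groups were taken from the labels.

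Expected counts were rounded to whole numbers and filtered with edgeR's filterByExpr (smallest count 10, smallest total 15), which left 17879 genes in the 15 libraries and 17630 in the 12 lung libraries. Counts were scaled by TMM and tested with edgeR's quasi-likelihood test (robust) on 4 group means, with Benjamini-Hochberg adjustment over all genes tested and a call at an adjusted p under 0.05. Fold changes are log2 values with their SE. Tools were R 4.3.3, edgeR 4.0.16, limma 3.58.1, DESeq2 1.42.0, Python 3.11.15, pandas 2.3.3 and matplotlib 3.10.9, and the fits were tested on simulated data. Alternatives were other scaling, DESeq2, no filter, limma on log2(TPM + 1) and log2(TPM + 0.1), the label number as a block, terms for gene length, fits of fewer groups, and leaving out libraries. Of these, DESeq2, limma and single comparisons in the 12 lung libraries, and correlations in normalised CPM, were chosen after seeing the data.

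The 9 genes and the lists beside them were chosen with earlier results of these data known. Named beside the 9 were 14 partner genes, and, since no list gene was called in the 15 or the 12 libraries, the gene of smallest p in each list for all silica libraries against the rest, and the 3 genes most alike in pattern, predicted genes left out. Some of the genes most alike are not reported here. Krt8-ps, a pseudogene of Krt8, and Gm16212, which overlaps Rtkn2, were at 0 counts in all libraries, and Hopxos, opposite to Hopx, had at most 17.7 expected counts and Gm36026, which overlaps Krt8, at most 7.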

Additional observations from a re-analysis of the deposited data

Results flagged for a closer look

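In 27 combinations of a group of 4 libraries and 1 of the 9 genes, 5 had a highest or lowest library whose gap to the next one, as a share of the group's range in TPM, passed Dixon's 95% critical value for 4 libraries, where chance gives about 1 in 20. In the silica_DMSO group these were Ager at 1252 TPM, Pdpn at 97.6 TPM, Rtkn2 at 52.1 TPM and Akap5 at 27.1 TPM, all in silica_DMSO 2, the only library of its group that is neither thymus-like nor short-gene. In the DMSO group it was Cldn4 at 9.57 TPM in the thymus-like library DMSO 7, against 3.38 to 3.78 TPM in the 3 lung libraries of that group. The 5 are not independent, since 4 of them are the same library. The rate of 1 in 20 is for libraries alike in kind. The silica_DMSO and DMSO groups mix thymus-like, short-gene and other lung libraries, so that rate does not apply to them.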

How the results depend on the processing

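Under 42 alternatives, 0 of 2232 values of the 9 genes were called, with a smallest adjusted p of 0.147 (Pdpn, DMSO against control), and 445 values had another sign than with all 15 libraries. In silica against control, Ager, Hopx, Aqp5, Rtkn2, Akap5 and Sfn kept their sign in all alternatives, Ager from -1.34 to -0.30, while Pdpn changed it in 5, Krt8 in 2 and Cldn4 in 1. In DMSO against control Ager ran from -1.98 to 0.17 and Cldn4 from 0.13 to 1.56. In silica_DMSO against silica Cldn4 ran from -1.21 to 1.22 and changed sign in 20. The replicate block, with the label number as a block, left 0 of the 9 genes and 0 of all genes called in all comparisons of the 15 and of the 12 libraries, and its smallest adjusted p was 0.186 (Akap5, DMSO against control, 12 libraries). Deviations of libraries with the same number had a median correlation of -0.11 over 13 pairs in the 15 libraries, from -0.49 to 0.27. In the 12 libraries the median was -0.02 over 8 pairs, from -0.46 to 0.38. Pairs with different numbers ran from -0.76 to 0.80 in the 15 libraries. With so wide a spread, these correlations cannot tell whether the numbers pair the samples. Of all genes, silica against control called 0 by edgeR and 44 by DESeq2 in the 15 libraries, 2 and 150 in the 12, and 48 in the 7 without the short-gene shift. With 2 to 4 lung libraries a group, the intervals of most of the 9 genes include changes of 2-fold.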

Other observations

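The ratio of Krt18 to Krt8, the paired keratins of simple epithelia, was 0.824, 1.43, 1.15 and 1.75 in silica_DMSO libraries 2, 4, 5 and 6, and 0.769, 0.729 and 0.804 in silica libraries 1, 2 and 7. In DMSO libraries 1, 4, 6 and 7 it was 0.961, 0.789, 0.960 and 1.68, and in control libraries 1, 2, 4 and 7 it was 1.26, 0.996, 0.935 and 0.784. The 3 thymus-like libraries had the highest 3 ratios of TPM.

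Sftpc over Ager, a ratio of a type 2 to a type 1 gene, was 26.6 to 33.8 in the 4 control libraries and 31.3, 39.5 and 52.3 in silica 1, 2 and 7. It was highest in DMSO 4 at 138 and silica_DMSO 5 at 112, both short-gene libraries. In control 1, also a short-gene library, it was lowest, at 26.6.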
